A study of Mus musculus with 9 samples.

Results

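The 10 genes described here encode proteins that intestinal epithelium releases into the lumen to hold bacteria away from the tissue, or that carry antibody there: Reg3b, Reg3g, Defa24, Mmp7, Lyz1, Ang4, Reg4, Itln1, Pigr and Lcn2. They were taken by name from the gene symbols of a deposited RNA-seq count table of 46095 rows, and all 10 were found and passed the filter on low counts. The libraries were made from colon intestinal epithelial cells (IECs) that had been released with EDTA. The comparison was between 4 libraries from Smad4 Vil-KO mice and 5 from Smad4 Vil-KO;Setd2 Vil-KO mice.

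Both groups lacked Smad4, a transcription factor of TGF-beta and BMP signalling, in cells that express Villin-Cre, a Cre recombinase active along the whole intestinal epithelium. The second group, called the double knockout below, also lacked Setd2, the methyltransferase that places H3K36me3 on transcribed genes. All mice of the experiment, on a C57BL/6j background, received the carcinogen azoxymethane (AOM, 10 mg/kg at 8 weeks of age) and, 5 days later, 1 course of 2% dextran sodium sulfate (DSS), which injures the colon lining, for 5 days. IECs were collected after 10 days of AOM/DSS. The series holds no wild-type, Setd2-only or untreated library, so the comparison concerns the added loss of Setd2 in a Smad4-deleted, treated epithelium. The labels do not say whether each library came from a separate mouse, and the p-values measure the spread between libraries.

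Paneth cells of the small intestine keep alpha-defensins, lysozyme and matrilysin in granules at the crypt base, and the healthy mouse colon has few or none of them. In the colon, goblet cells and deep crypt secretory cells release a partly different set, such as Ang4, Reg4 and intelectin. The lectins Reg3b and Reg3g are made by enterocytes too and are induced by bacteria through interleukin-22 and STAT3, while the polymeric immunoglobulin receptor and lipocalin-2 are made by epithelial cells broadly under inflammatory signals.

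Library totals ran from 12487129 to 17120202 assigned reads. Setd2, the gene deleted in the double knockout, had 99.2 to 120.1 CPM (counts scaled for library size with TMM factors) in the 4 single knockout libraries and 53.9 to 87.1 CPM in the 5 double knockout libraries, and it fell by 0.77 on the log2 scale (SE 0.14, edgeR quasi-likelihood test, adjusted p = 0.00756). Smad4, deleted in both, had means of 64.2 and 70.3 CPM (log2 difference 0.13, SE 0.33, adjusted p = 0.819), and its direction turned under several settings. All 10 general epithelial markers passed the filter, with summed levels of 13807 to 15990 CPM and 12981 to 15552 CPM; edgeR called 0 of them (2 at an unadjusted p under 0.05), and DESeq2 called 1 in each direction. Transcripts of 4 Y-linked genes were abundant in double knockout libraries 1, 2 and 5 (3857 to 4907 counts) and at 0 to 28 counts in the others, so the double knockout group mixed libraries with and without Y-linked RNA and the single knockout group did not. Values without those 3 libraries stand beside the 10 genes, and beside other genes, where examined, when they end a call. Such fits keep only double knockout libraries 3 and 4 beside the 4 single knockout libraries. Those double knockout libraries had the highest levels of their group for Reg3b, Reg3g, Defa24 and Mmp7, so a larger fold there partly reflects which libraries remained.

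Of the 10 genes, 3 were higher in the double knockout at an adjusted p under 0.05 (Reg3b, Reg3g and Defa24), also by DESeq2 and by limma-voom. By edgeR 0 were lower, by DESeq2 0 and by limma-voom 1. Over all 14593 genes tested, 6.76% were called higher and 6.54% lower, 13.3% in either direction. At an unadjusted p under 0.05, 2 of the 10 lay lower, Lyz1 and Pigr. The median log2 difference was 0.20 over the 10 genes and -0.0006 over all tested genes. All 5 double knockout libraries lay above all 4 single knockout libraries for Reg3b and Reg3g, a pattern held by 8.34% of tested genes, and below them for Pigr, a pattern held by 8.87%. The other 7 genes had overlapping groups.

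**Figure D1:**
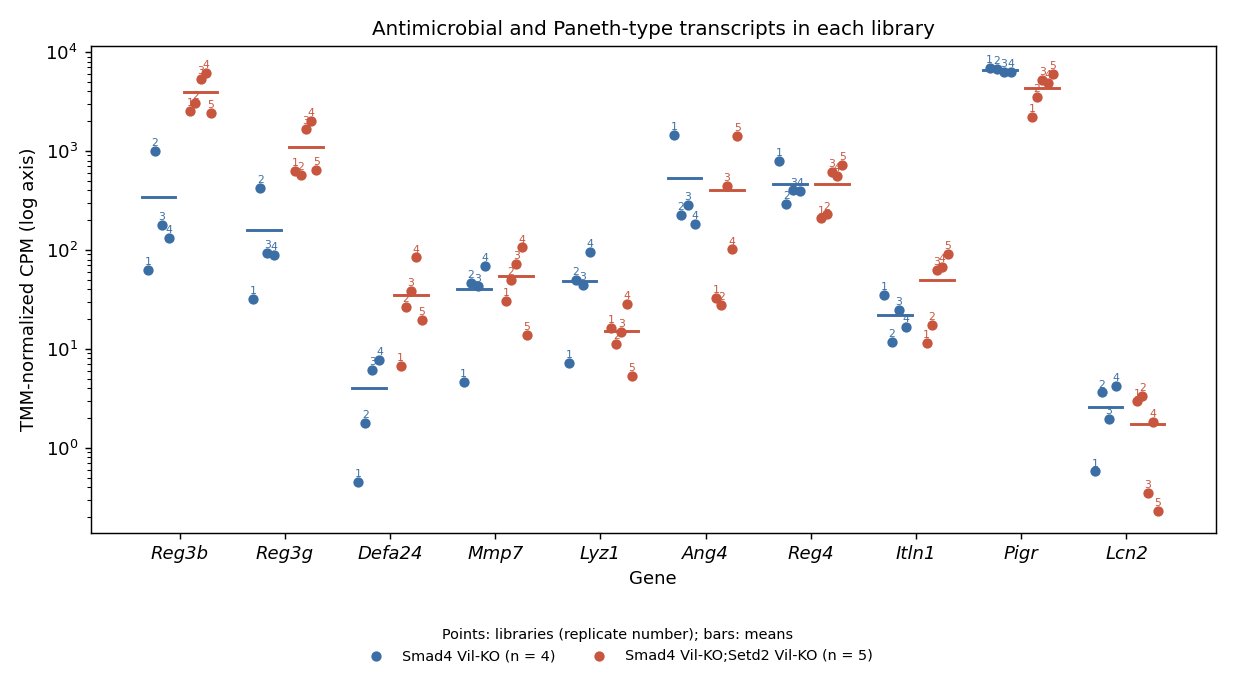
TMM-normalized CPM (log axis) of the 10 genes in each library, with replicate numbers beside the points and bars at the group means; blue is Smad4 Vil-KO (n = 4) and red is Smad4 Vil-KO;Setd2 Vil-KO (n = 5). Reg3b and Reg3g separate the groups upward and Pigr downward, while Ang4 spans 27.8 to 1429 CPM within the double knockout alone.

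**Figure D2:**
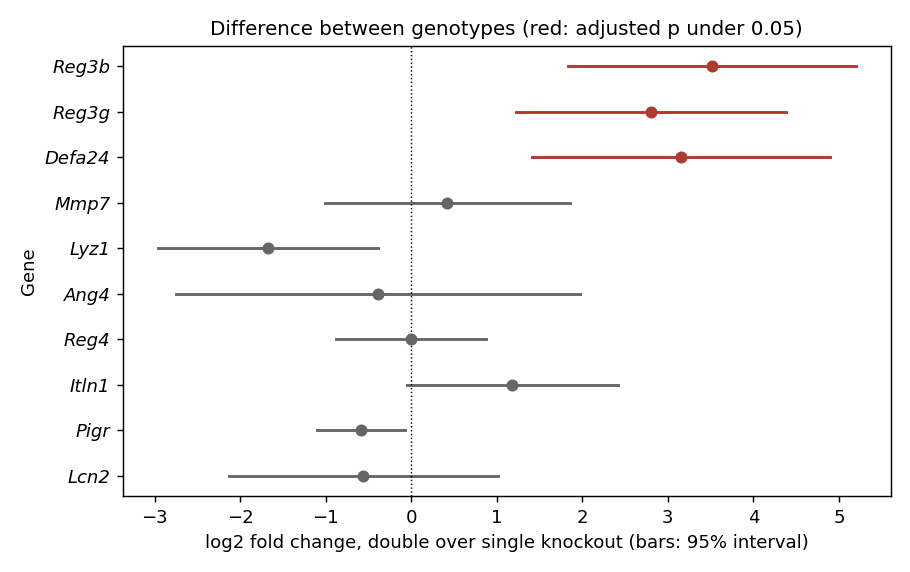
Log2 fold change of each gene, double over single knockout, from the edgeR fit across all tested genes, with bars for the 95% interval and red for an adjusted p under 0.05. The values run from 3.51 for Reg3b to -1.67 for Lyz1.

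Reg3b, a C-type lectin that binds bacterial surfaces, showed the highest fold among the 10 in the main fit. Defa24 had the larger log2 fold change without single knockout library 3 (3.46 against 3.31) and without single knockout library 4 (3.65 against 3.24). Reg3b had 62.4, 993, 179 and 132 CPM in single knockout libraries 1 to 4, and 2557, 3020, 5357, 6170 and 2407 CPM in double knockout libraries 1 to 5. The lowest double knockout library was thus above the single knockout library 2, which itself stood far from its group. The means were 342 ± 437 (SD, n = 4) and 3902 ± 1738 (SD, n = 5) CPM, a log2 fold change of 3.51 (SE 0.76, edgeR adjusted p = 0.0149). The log2 fold change was 4.97 without single knockout library 2 (adjusted p = 0.000717). Without single knockout library 3 the adjusted p was 0.0558 (log2 fold change 3.31), and 18 of 19 alternative settings kept the call. Among libraries without Y-linked counts alone, the log2 fold change was 4.08 (SE 0.84, adjusted p = 0.0107).

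Reg3g, the paralogue that binds peptidoglycan of Gram-positive bacteria, followed the same libraries. Its levels were 31.9, 419, 92.7 and 89.6 CPM in the single knockout and 625, 573, 1661, 2024 and 649 CPM in the double knockout. Again the groups did not overlap, with single knockout library 2 the highest of its group and double knockout libraries 3 and 4 the highest overall. The means were 158 ± 176 (SD, n = 4) and 1106 ± 685 (SD, n = 5) CPM, and the log2 fold change was 2.80 (SE 0.72, edgeR adjusted p = 0.0278). The log2 fold change was 3.95 without single knockout library 2 (adjusted p = 0.00584). The call did not hold without single knockout library 1 (adjusted p = 0.0551), 3 (0.0921) or 4 (0.0781), without double knockout library 4 (0.0564), or with a robust dispersion (0.0604), and the lowest log2 fold change with 1 library left out was 2.47. Libraries without Y-linked counts gave a log2 fold change of 3.55 (SE 0.73, adjusted p = 0.0105). Both genes together took 0.00900% to 0.139% of all counts in the single knockout libraries and 0.295% to 0.818% in the double knockout libraries.

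Reg3b (GRCm38 chr6:78370657-78373466, plus strand) and Reg3g (chr6:78466269-78468872, minus strand) stand at the ends of a run of 6 Reg genes that spans 98.2 kb. Between them, Reg3a (chr6:78380709-78383827) is a further lectin of the family, at a low level. Reg3a had 0, 19, 4 and 0 counts in the single knockout libraries and 500, 328, 160, 223 and 129 counts in the double knockout libraries. Every double knockout library was above every single knockout library. Reg3a passed the filter on low counts only through the double knockout libraries, so its call is no independent support, and no fold is given against a group with libraries at 0. Its order among the double knockout libraries, highest in library 1, was not that of Reg3b. Reg3d was below the filter, with 0, 3, 0 and 0 counts against 41, 21, 11, 5 and 5 counts. Reg1 and Reg2, secreted regenerating proteins known from pancreas, were also below it. Reg1 had 0, 7, 2 and 0 counts against 5, 6, 24, 16 and 18 counts, with overlapping groups, and Reg2 had at most 2 counts in any library. Reads that match several Reg paralogues could have been split between them by the counting, which was not tested.

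The bases before the RefSeq start sites of Reg3b and Reg3g are shown because both genes moved together and are known as STAT3-responsive genes. Capitals mark matches to TTCNNNGAA, the letters bound by STAT factors, and to TATAAA, the TATA box, on either strand. RefSeq windows (build GRCm38.p6) were read from 250 bases before each start; the stretches printed begin at base -178, since GENCODE places an exon of a longer Reg3b transcript before that base, and end with the TATAAA match nearest to the start.
Reg3b, chr6:78370707-78370861, plus strand: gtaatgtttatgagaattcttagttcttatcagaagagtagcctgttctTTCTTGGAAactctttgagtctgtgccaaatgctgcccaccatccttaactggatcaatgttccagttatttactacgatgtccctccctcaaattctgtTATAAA
Reg3g, chr6:78468896-78469052, minus strand: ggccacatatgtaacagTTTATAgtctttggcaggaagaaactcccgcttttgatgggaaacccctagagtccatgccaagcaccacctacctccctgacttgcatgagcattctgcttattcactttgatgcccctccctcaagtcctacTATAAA

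The 250-base windows of Reg3b and Reg3g were identical at 175 of 254 alignment columns (68.9%), against 49.3% for Reg3b and Reg3a. Reg3b held TTCTTGGAA at bases -129 to -121 and TATAAA at -29 to -24, and Reg3g held TATAAA at -27 to -22, its reverse complement at -161 to -156 and no TTCNNNGAA. A CTTTGA, the core bound by TCF factors, lay at -117 in Reg3b and at -54 in Reg3g. On either strand of 32817 RefSeq windows of this length, TTCNNNGAA occurred in 7.01%, TATAAA in 12.4% and CTTTGA in 13.8%. RefSeq windows were found for 9 of the 10 genes, Defa24 being the exception. Besides Reg3b, TTCNNNGAA was found in the window of Ang4 (TTCCCTGAA at -192 to -184), which did not pass the test.

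Among the granule proteins of Paneth cells, Defa24 was called higher, and the other members did not pass the test in either direction. Defa24 (chr8:21734494-21735471) encodes an alpha-defensin, a small peptide that lyses bacteria. Defa24 had 7, 30, 99 and 97 counts in the single knockout libraries and 104, 376, 548, 1069 and 253 counts in the double knockout libraries, that is 0.449, 1.78, 6.08 and 7.70 CPM against 6.67, 26.8, 38.3, 84.1 and 19.6 CPM. The groups overlapped because double knockout library 1 was below single knockout library 4. The means were 4.0 ± 3.44 (SD, n = 4) and 35.1 ± 29.7 (SD, n = 5) CPM, and the log2 fold change was 3.15 (SE 0.79, edgeR adjusted p = 0.0262).

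The call depended on several libraries. Without single knockout library 1, 2 or 3 the adjusted p of Defa24 was 0.0594, 0.0738 and 0.0638, without double knockout library 4 it was 0.0541, and with a robust dispersion it was 0.0565; the log2 fold change was between 2.54 and 3.97 in all 18 alternatives that tested the gene. Libraries without Y-linked counts gave a log2 fold change of 3.97 (SE 0.60, adjusted p = 0.00270). Alpha-defensin genes are near-identical copies, so which copy the reads came from is uncertain. Of 18 listed alpha-defensin genes in the table, 6 had no count in any library, no gene other than Defa24 was above 28 counts in any library, and Defa24 took 69.8% to 100% of their summed counts in each library.

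Mmp7, matrilysin, the metalloprotease that cuts mouse pro-defensins to their active form, had overlapping levels. Mmp7 (chr9:7692090-7699585) had 4.62, 46.0, 42.8 and 69.4 CPM in the single knockout and 30.5, 49.3, 71.9, 105.9 and 13.9 CPM in the double knockout. The lowest values were single knockout library 1 and double knockout library 5. The log2 difference was 0.42 (95% interval -1.01 to 1.85, edgeR adjusted p = 0.699), and 0 of 19 alternatives called it. It was 0.05 without single knockout library 1, 0.80 without single knockout library 4, 0.04 without double knockout library 4 and 0.68 without double knockout library 5. Libraries without Y-linked counts gave 1.14 (adjusted p = 0.225).

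Lyz1, the lysozyme of Paneth granules, which breaks bacterial cell walls, lay lower in the double knockout in most libraries. Lyz1 (chr10:117287797-117292868) had 7.25, 49.4, 44.5 and 94.6 CPM in the single knockout and 16.2, 11.3, 14.9, 28.7 and 5.35 CPM in the double knockout. Single knockout library 1 was the exception in its group, below all double knockout libraries but library 5. The log2 difference was -1.67 (SE 0.59, 95% interval -2.96 to -0.39, edgeR adjusted p = 0.0827 and 0.0155 before adjustment). Without single knockout library 1 it was -2.03 (adjusted p = 0.0220) and without a filter on low counts -1.69 (adjusted p = 0.0469), the only 2 of 19 alternatives that called it. It was -1.15 without single knockout library 4 (adjusted p = 0.229), and libraries without Y-linked counts gave -1.16 (adjusted p = 0.281).

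Lyz2 is the neighbouring and closely similar lysozyme of macrophages. Reads of Lyz1 and Lyz2 could have been assigned to either gene, which was not tested. Lyz1 made up 59.7% to 86.4% of the summed counts of both in the single knockout libraries and 25.9% to 77.8% in the double knockout libraries. Lyz2 had 4.56, 9.39, 7.0 and 63.8 CPM against 13.8, 11.1, 7.20, 8.18 and 15.3 CPM, so single knockout library 4 was high in both lysozymes. Of 9 tested macrophage markers, 0 were called by edgeR or DESeq2, and 0 had an unadjusted p under 0.05. The summed level of that list, which includes Lyz2, was 15.8 to 94.8 CPM in the single knockout and 19.4 to 43.6 CPM in the double knockout. In single knockout library 4 Lyz2 alone gave 63.8 of the 94.8 CPM, so the sum is not independent of Lyz2. The part of macrophages in the Lyz1 values was not tested. Among other Paneth products, 29 of 42 listed genes were in the table, 4 were tested and 0 were called in either direction by edgeR or DESeq2, with 1 lower at an unadjusted p under 0.05.

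Ratios between the 3 granule genes did not overlap between the 2 genotypes. These ratios were chosen after their values had been seen, from 45 possible ratios between the 10 genes, of which 14 had no overlap between genotypes. By an exact permutation test (two-sided), 0 of the 45 ratios passed an adjusted p of 0.05. With 4 against 5 libraries this test can give no p below 0.0159. All 14 ratios without overlap stood at that floor, where adjustment over the 45 gave 0.0510. The test therefore could not call any of them, whatever the size of the difference. The share without overlap among other pairs of genes was not measured, and the ratios are given as descriptions. The count ratio of Defa24 to Lyz1 was 0.0619, 0.0361, 0.137 and 0.0814 in the single knockout libraries and 0.411, 2.36, 2.57, 2.93 and 3.67 in the double knockout libraries. Lyz1 thus outnumbered Defa24 in all 4 single knockout libraries and in double knockout library 1, and the order was turned in the other 4. The mean log2 ratio was -3.82 ± 0.80 (SD, n = 4) against 0.95 ± 1.27 (SD, n = 5), a difference of 4.77.

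Lyz1 to Mmp7 was 1.57, 1.07, 1.04 and 1.36 in the single knockout libraries and 0.532, 0.229, 0.207, 0.271 and 0.385 in the double knockout libraries. In this ratio single knockout library 1, which had the lowest counts of both genes in its group, stood with the other 3. Defa24 to Mmp7 ranged from 0.0388 to 0.142 and from 0.218 to 1.41, also without overlap. Mean log2 differences were -2.03 for Lyz1 to Mmp7 and 2.75 for Defa24 to Mmp7, and among libraries without Y-linked counts -2.39 and 2.89. After subtracting the genotype means, log2 CPM of Lyz1 and Mmp7 correlated over the 9 libraries with r = 0.95 (rho = 0.87), and with r = 0.73 without the 2 libraries farthest from the median of Lyz1. Defa24 and Mmp7 gave r = 0.81 (rho = 0.82).

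**Figure D3:**
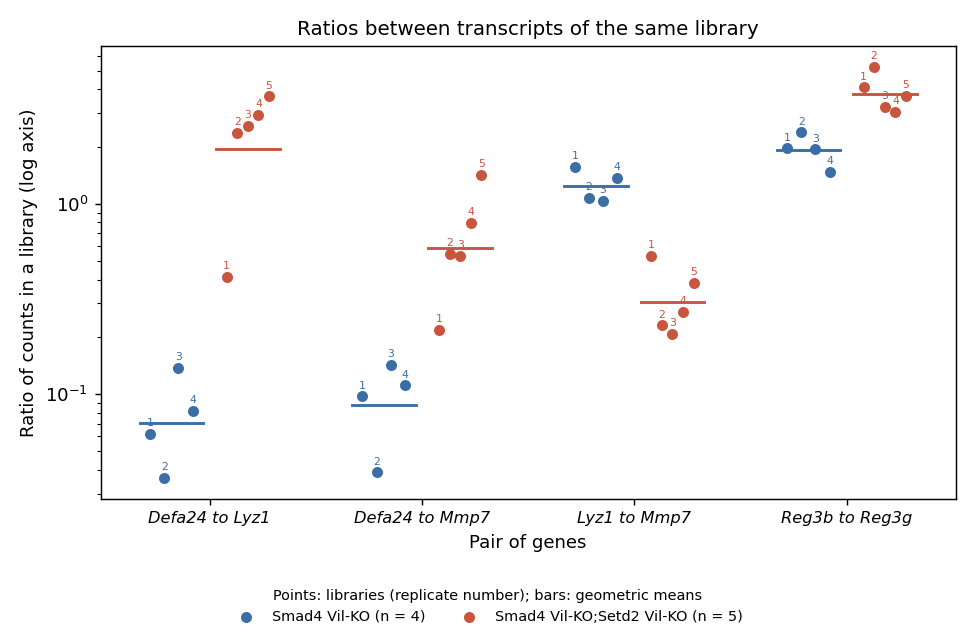
Ratio of counts within each library (log axis) for 4 pairs of genes, with points for libraries, replicate numbers beside them and bars at the geometric means (blue Smad4 Vil-KO, n = 4, red Smad4 Vil-KO;Setd2 Vil-KO, n = 5). Each of the 4 ratios separates the genotypes, with Defa24 to Lyz1 at 0.0361 to 0.137 against 0.411 to 3.67.

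Reg3b and Reg3g also differed in proportion. Reg3b to Reg3g was 1.96, 2.37, 1.93 and 1.48 in the single knockout libraries and 4.09, 5.27, 3.23, 3.05 and 3.71 in the double knockout libraries, so the excess of Reg3b counts was larger in every double knockout library. The mean log2 ratio differed by 0.99, from 0.93 ± 0.28 (SD, n = 4) to 1.92 ± 0.31 (SD, n = 5). Per kilobase of exon, mean levels were 299 and 3417 CPM per kb for Reg3b, rank 4 of the 10 genes in the single knockout and rank 1 in the double knockout, and 1626 and 1082 CPM per kb for Pigr, rank 1 and rank 2.

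The 3 genes linked to goblet and deep crypt secretory cells, Ang4, Reg4 and Itln1, were not called. Ang4, an angiogenin-family ribonuclease with bactericidal activity (chr14:51763878-51773590), had 1439, 223, 287 and 182 CPM in the single knockout and 32.7, 27.8, 442, 101.2 and 1429 CPM in the double knockout. A library of each genotype stood at the same high level, single knockout library 1 and double knockout library 5, and the remaining 7 were between 27.8 and 442 CPM. The log2 difference was -0.39 (95% interval -2.75 to 1.97, edgeR adjusted p = 0.834), and without single knockout library 1 it turned to 0.81. Libraries without Y-linked counts gave -0.97 (adjusted p = 0.458).

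Reg4, a lectin-like marker of deep crypt secretory cells (chr3:98222156-98236748), had 791, 293, 399 and 393 CPM in the single knockout and 208, 229, 615, 563 and 717 CPM in the double knockout. Group means were nearly equal, 469 ± 220 (SD, n = 4) and 466 ± 233 (SD, n = 5) CPM. The log2 difference was -0.01 (95% interval -0.89 to 0.87, edgeR adjusted p = 0.991), which leaves room for changes of either sign within that interval. Libraries without Y-linked counts gave 0.33 (adjusted p = 0.489).

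Itln1, intelectin, a lectin for microbial sugars from goblet and Paneth cells (chr1:171518122-171535294), had 35.2, 11.8, 24.5 and 16.6 CPM in the single knockout and 11.5, 17.3, 63.1, 68.0 and 90.5 CPM in the double knockout. Double knockout libraries 3, 4 and 5 were above all single knockout libraries, library 2 was within their range and library 1 was just below it. The log2 difference was 1.18 (SE 0.56, 95% interval -0.05 to 2.42, edgeR adjusted p = 0.181). Without the libraries with Y-linked counts it was 1.57 (SE 0.32, adjusted p = 0.00943), the only 1 of 19 alternatives that called it.

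These 3 genes moved together from library to library. After subtracting genotype means, Itln1 and Reg4 correlated with r = 0.97 (rho = 0.92, and r = 0.94 without 2 libraries), Ang4 and Reg4 with r = 0.90 (rho = 0.93) and Itln1 and Ang4 with r = 0.86 (rho = 0.87), over the same 9 libraries. Among 13699 genes compared, those most like Ang4 were Actr1b (r = 0.99), the goblet cell metalloprotease Clca1 (r = 0.98) and Gne (r = 0.98), and those most like Itln1 were Copz2, Atp6v0e2 and Chrm1 (r = 0.987 to 0.997). All such values share libraries and their depth, and are descriptions.

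Single knockout library 1 and double knockout library 5 were the highest of their genotype not only in Ang4, Reg4, Itln1 and Pigr but also in the goblet cell products Clca1 and Fcgbp and in Mptx1. Mptx1, a pentraxin of the gut epithelium, had 3360, 90.4, 128 and 91.1 CPM in the single knockout and 12.8, 202, 262, 101.7 and 3305 CPM in the double knockout. The same 2 libraries were the lowest of their genotype in Lyz1, Mmp7, Reg3b and Lcn2. They are thus opposite in the 2 sets of genes, and the comparison of genotypes contains 1 such library on each side. In bulk RNA, fewer cells of a type and less RNA per cell cannot be told apart.

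**Figure D4:**
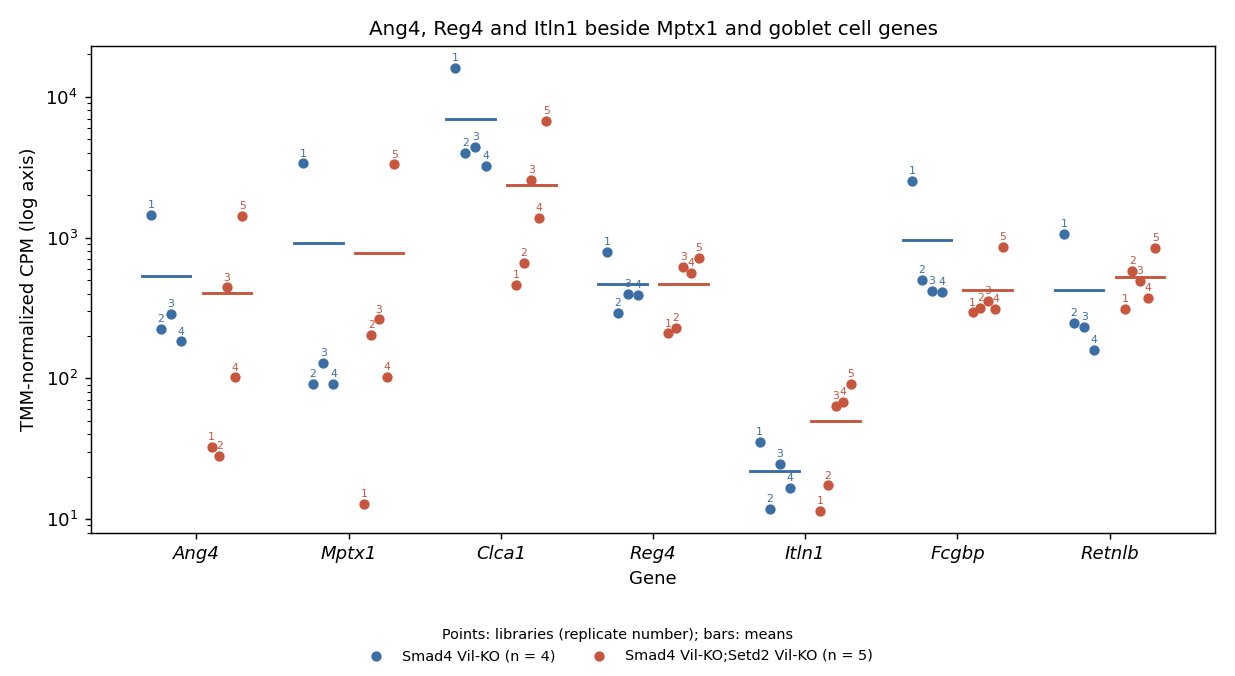
TMM-normalized CPM (log axis) of Ang4, Reg4 and Itln1 beside Mptx1, Clca1, Fcgbp and Retnlb in each library, with replicate numbers beside the points and bars at the means (blue Smad4 Vil-KO, n = 4, red Smad4 Vil-KO;Setd2 Vil-KO, n = 5). Single knockout library 1 and double knockout library 5 are the highest of their genotype in all 7 genes.

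Of 16 tested goblet and deep crypt secretory genes, which include Ang4 and Reg4, 0 were called higher by edgeR (0 by DESeq2, 1 at an unadjusted p under 0.05) and 1 lower, with a median log2 difference of -0.43. The gene called lower was Muc2, the gel-forming mucin of the colon, with 4835 to 7553 CPM in the single knockout and 1672 to 2758 CPM in the double knockout. Muc2 fell by 1.62 on the log2 scale (SE 0.18, edgeR adjusted p = 0.000542), in all 19 alternatives. DESeq2 called 2 of the list lower.

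Pigr, the receptor that carries dimeric IgA across the epithelium and is shed as secretory component (chr1:130826684-130852249), was the most abundant of the 10 per kilobase in the single knockout. Its levels there were 6881, 6731, 6302 and 6263 CPM, and in the double knockout 2229, 3513, 5238, 4839 and 5956 CPM. The single knockout libraries were within a factor of 1.1 of each other, the double knockout libraries spread over a factor of 2.67, and the groups did not overlap. The means were 6544 ± 309 (SD, n = 4) and 4355 ± 1484 (SD, n = 5) CPM, with a log2 difference of -0.59 (SE 0.23, 95% interval -1.10 to -0.08, edgeR adjusted p = 0.116 and 0.0282 before adjustment). It passed the threshold in 2 of 19 alternatives, limma-voom with quality weights (adjusted p = 0.0491) and libraries without Y-linked counts (log2 difference -0.37, adjusted p = 0.0191). With all libraries kept and a term for Y-linked counts, Pigr had a log2 difference of -0.38 and was not called (edgeR adjusted p = 0.456).

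Of the 7 tested genes of immunoglobulin transport, Pigr included, edgeR called 1 higher and 0 lower; DESeq2 called 3 higher and 0 lower, and limma-voom called 2 higher and 1 lower. Ccl25, a chemokine of the small-intestinal epithelium that draws CCR9-bearing lymphocytes, had 2.12 to 3.98 CPM in the single knockout and 14.7 to 51.2 CPM in the double knockout, and rose by 3.35 on the log2 scale (SE 0.39, edgeR adjusted p = 0.000779). Jchain, which joins IgA dimers for Pigr to carry, had means of 15.6 and 32.1 CPM (adjusted p = 0.0636). Of 7 tested B and plasma cell markers, 0 were called by edgeR and 1 by DESeq2, Jchain having the only unadjusted p under 0.05, and their summed level was 14.8 to 40.9 CPM against 22.02 to 63.9 CPM.

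Lcn2, lipocalin-2, which withholds iron from bacteria by binding their siderophores (chr2:32384633-32388252), was low in every library. Lcn2 had 9, 61, 32 and 53 counts in the single knockout and 46, 47, 5, 23 and 3 counts in the double knockout. The groups overlapped over nearly their whole range (log2 difference -0.56, 95% interval -2.14 to 1.02, edgeR adjusted p = 0.627), and libraries without Y-linked counts gave -1.27 (adjusted p = 0.280). Over the libraries Lcn2 ran opposite to Ang4 (r = -0.97, rho = -1 after subtracting genotype means). Neutrophils also make lipocalin-2; of 14 neutrophil markers, Mpo, Elane and Camp had 0 counts in every library, and 8 were tested, with 0 called by edgeR or DESeq2 and 2 lower at an unadjusted p under 0.05. The summed neutrophil list, 638 to 881 CPM against 375 to 649 CPM, was mostly Cd177 (means of 619 and 401 CPM).

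**Figure D5:**
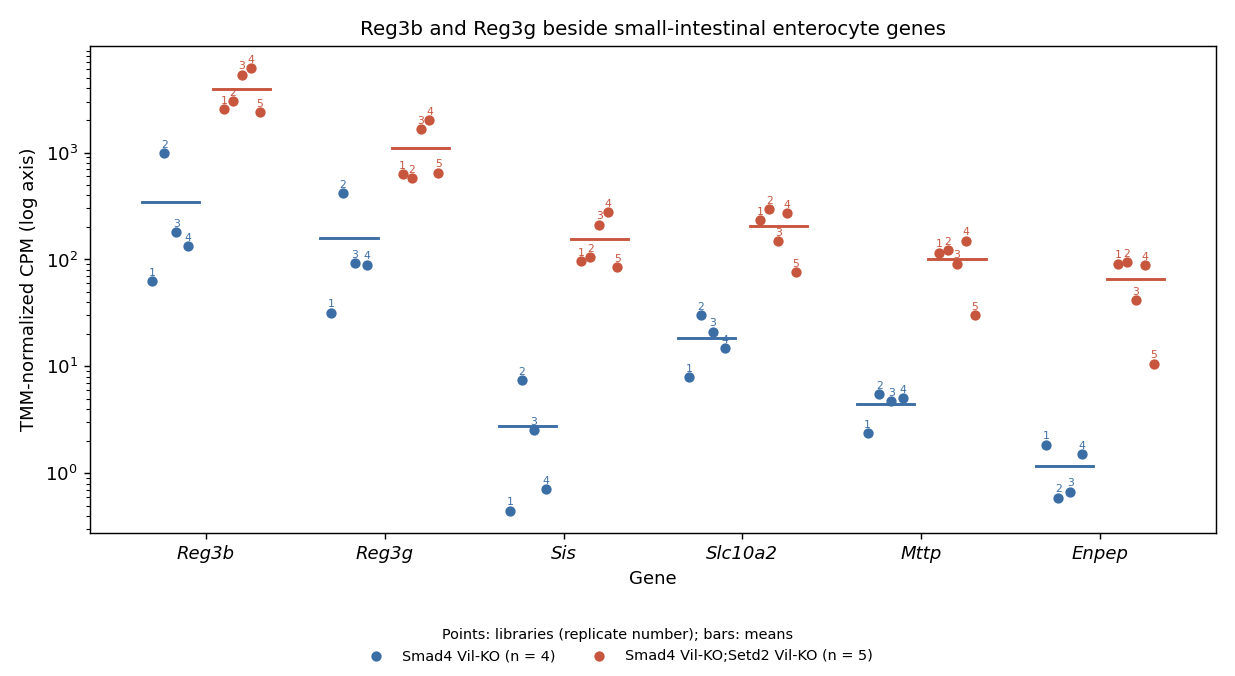
TMM-normalized CPM (log axis) of Reg3b and Reg3g beside 4 small-intestinal enterocyte genes, Sis, Slc10a2, Mttp and Enpep, in each library, with replicate numbers beside the points and bars at the means (blue Smad4 Vil-KO, n = 4, red Smad4 Vil-KO;Setd2 Vil-KO, n = 5). All 6 genes are higher in every double knockout library, and Sis has the order of Reg3b within the double knockout.

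Several genes that mark small-intestinal enterocytes were higher in the double knockout along with Reg3b and Reg3g. Of 17 tested, 12 were called higher, and 0 lower by edgeR or DESeq2 or at an unadjusted p under 0.05. Of the 12, Apoa1, Fabp1, Gata4 and Npc1l1 had at most 12 counts in every single knockout library and passed the filter on low counts only through the double knockout, so the count is a description. When every library had to hold at least 10 counts, 7 were called higher. Sis, below that level in single knockout library 1, was then not tested either. Sis, the sucrase-isomaltase of the brush border, had 0.449, 7.43, 2.52 and 0.715 CPM in the single knockout and 95.8, 104.7, 211, 278 and 85.3 CPM in the double knockout. Within each genotype, Sis placed the libraries in the order of Reg3b. Sis rose by 5.75 on the log2 scale (SE 0.70, edgeR adjusted p = 0.000985), and after subtracting genotype means it was among the 3 genes most like Reg3b (r = 0.96), after Reg3g (r = 0.97) and Slc35a5 (r = 0.97). The part of these transcripts in the Reg3 values was not tested.

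A list of other epithelial antimicrobial and barrier proteins held genes called in both directions. Of 36 listed, 35 were in the table and 22 were tested, of which edgeR called 3 higher and 3 lower, with a median log2 difference of -0.27. DESeq2 and limma-voom each called 3 higher and 5 lower. At an unadjusted edgeR p under 0.05, 4 lay higher and 8 lower. Besides Reg3a, whose call is limited as above, the genes called higher were Ang (log2 fold change 1.90, SE 0.36, adjusted p = 0.00748) and Rnase4 (1.45, SE 0.18, adjusted p = 0.000994), secreted ribonucleases related to Ang4. Ang and Rnase4 overlap on chromosome 14 and their reads may be shared, and both were called in all 19 alternatives. Those called lower, by edgeR, were Sprr1a (fell by 1.13, adjusted p = 0.00692), Tgm3 (fell by 2.25, adjusted p = 0.0188) and Plet1 (fell by 1.71, adjusted p = 0.0346). Sprr1a and Tgm3 are proteins of epithelial barrier cross-linking; Sprr1a was called in 19, Tgm3 in 18 and Plet1 in 11 of 19 alternatives. Without single knockout library 1, Tgm3 had an adjusted p of 0.0584.

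Upstream of these products, the interleukin-22, interleukin-17 and STAT3 axis gave 0 genes called higher by edgeR (1 by DESeq2, 1 at an unadjusted p under 0.05) and 5 of 23 tested called lower (median log2 difference -0.15). Il22 had 0 or 1 count in every library, Il17a, Il17f and Il6 had at most 6, and Tnf had 0 in all 9, which allows up to 0.178 to 0.238 CPM per library for counting error alone. Il22ra1, the receptor subunit for interleukin-22, had means of 87.3 and 97.2 CPM and was not called by edgeR (log2 difference 0.16, adjusted p = 0.393), and neither was Stat3 (-0.11, adjusted p = 0.528). The libraries hold released IECs, so these counts do not measure cytokines made elsewhere in the colon. STAT3 activity was not measured. Genes that fell were Il17re, a receptor subunit for interleukin-17C (by 1.02, adjusted p = 0.00293), Il18 (by 0.96, adjusted p = 0.0466), the fucosyltransferase Fut2 (by 0.68, adjusted p = 0.0192), Tnfrsf1b (by 0.66, adjusted p = 0.0128) and Nfkbiz (by 0.44, adjusted p = 0.0212), all on the log2 scale. Il17re and Tnfrsf1b were called in all 19 alternatives, Fut2 in 17, Nfkbiz in 15 and Il18 in 11.

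Of 27 tested genes of microbial sensing and NF-kappaB signalling, 2 were called higher, the flagellin receptor Tlr5 (log2 fold change 0.90, adjusted p = 0.0330 by edgeR) and the inhibitor Nfkbia (0.62, adjusted p = 0.0480), and Cd14 fell by 0.62 (adjusted p = 0.0152). Tlr5 kept its call in 14, Nfkbia in 10 and Cd14 in 17 of 19 alternatives. In libraries without Y-linked counts Cd14 lost its call (-0.52, adjusted p = 0.0591). Of 23 regulators of Paneth and other secretory cells, the Notch ligand Dll1 was called higher (0.52, adjusted p = 0.0308). Bhlha15, a factor for granule-storing cells, fell by 1.23 (adjusted p = 0.0155), Foxa2 by 0.67 (adjusted p = 0.00737) and Sox9, which Paneth cells require, by 0.46 (adjusted p = 0.0439), in 17, 19 and 10 of 19 alternatives, and Dll1 was called in 10. In libraries without Y-linked counts Dll1 also lost its call (0.32, adjusted p = 0.156). Atoh1, the factor that sets secretory fate, was not called (log2 difference -0.30, adjusted p = 0.211).

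T cells and innate lymphoid cells are known sources of interleukin-22 and interleukin-17. Of 11 tested markers, Gzma and Gzmb were called higher by edgeR (1.77 and 1.94 on the log2 scale, with adjusted p = 0.0187 and 0.0364) and 0 lower, also by DESeq2. Their summed level was 119.8 to 198 CPM in the single knockout and 84.5 to 320 CPM in the double knockout, lowest in double knockout library 5, and their part in the antimicrobial genes was not tested. Of 5 tested fibroblast markers, 0 were called by edgeR and 1 by DESeq2 (2 higher at an unadjusted p under 0.05). Only Cela1 of the pancreatic acinar list was tested, and it was called lower. Gzma, Gzmb and Cela1 were not examined without the libraries that held Y-linked counts.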

How the data were processed

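RNA-seq measured transcript levels in EDTA-released (8 mM) colon IECs. The authors deposited 1 table of raw read counts per gene symbol; the submitters' processing notes name HISAT2 2.0 and mm10, and the counting program is not given in the sources used here. Spreadsheet conversion had turned 27 symbols into dates. Groups came from the genotype labels. In edgeR 4.0.16 (R 4.3.3), filterByExpr kept 14593 genes, counts were scaled by TMM, and the double knockout was tested against the single knockout by the quasi-likelihood F test with Benjamini-Hochberg adjustment over all tested genes (threshold 0.05). SE is the log2 fold change over the square root of F. Library totals of 12487129 to 17120202 make 1 count worth 0.0594 to 0.0794 CPM; floors (3 counts) cover counting error only. The fit was first tested on simulated data. Alternatives included DESeq2 1.42.0, limma 3.58.1, other scalings and filters, and each library left out. Named genes were the 10 members, genes of listed pathways and cell types that passed the threshold or define a list, and the 3 genes most correlated with a member. Members and lists were chosen with earlier results of these data known. Positions are from GENCODE M21 and promoters from RefSeq, both GRCm38. The result of the colonocyte marker list is not reported here.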

Additional observations from a re-analysis of the deposited data

Results flagged for a closer look

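Of the 20 groups checked (10 genes in 2 genotypes), 3 held a library far from the others by Dixon's gap test. The nominal rate of about 1 group in 20 assumes independent, normally distributed values. The test was run on untransformed CPM, and no chance rate was measured for these data. Ang4 stood at 1439 CPM in single knockout library 1, against at most 287 CPM in the other 3 libraries of that genotype. Reg3b stood at 993 CPM in single knockout library 2, with 179 CPM the next, and Reg3g at 419 CPM in the same library, with 92.7 CPM the next. Both of these fall on the same library, and the 2 paralogues followed each other across libraries. Without single knockout library 1 the log2 difference of Ang4 turned to 0.81.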

How the results depend on the processing

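The direction of Reg3b, Reg3g and Defa24 was kept in all alternatives that tested them. The number of members called higher, 3, was 4 in libraries without Y-linked counts alone (Itln1 added), 1 with a robust dispersion and 0 to 3 when 1 library was left out (0 without single knockout library 3, and 1 without single knockout library 1 or double knockout library 4). The number called lower, 0, was 1 with limma-voom, with no filter and in libraries without Y-linked counts alone, and 0 to 1 when 1 library was left out. Ang4, at -0.39, turned to 0.81 without single knockout library 1, was -1.81 without double knockout library 5 and reached -2.07 with the replicate block. Reg4, near 0 in the main analysis, turned to 0.26 with limma-voom, 0.012 with library size alone, 0.000836 when each library had to hold at least 10 counts, 0.33 with a term for Y-linked counts and 0.33 without those libraries, and 0.37, 0.18 and 0.17 without single knockout library 1 and double knockout libraries 1 and 2, its lowest values being -0.26 with the replicate block and -0.204 without double knockout library 5. Mmp7, at 0.42, was 0.95 with the replicate block. Smad4 turned to -0.18 with limma-voom, -0.14 with the replicate block, -0.71 with the Y-linked term, -0.70 without those libraries, and -0.11 and -0.01 without double knockout libraries 2 and 5. The causes were not tested. Small-intestinal enterocyte genes called higher numbered 12, and 7 under the stricter filter of 10 counts per library, which tests fewer genes. Over all genes, calls ranged from 455 higher and 392 lower (without single knockout library 3) to 1461 and 1331 with DESeq2 and 1406 and 1524 in libraries without Y-linked counts.

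Replicate numbers are shared by the genotypes, but the deviations of same-numbered libraries correlated at -0.10, -0.10, 0.02 and 0.09, so no pairing by number was seen. The labels state no pairing, and these values cannot exclude one. With the replicate block, 3 members were called higher and 0 lower (787 and 831 over all genes), and no library correlated best with its own number. Counts under 10 in some libraries limit Lcn2 and Defa24, which fell outside the stricter filter.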
